A study of Mus musculus with 27 samples.

Results

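The mitochondrial carriers of the Slc25 family are encoded by nuclear genes, and 47 of them were measured here: every protein-coding gene of the deposited count table whose mouse symbol begins with Slc25a and a digit. They are 47 of 37332 genes in that table and of its 21208 protein-coding genes. A single gene with such a symbol and another biotype was left out. Of the 47, 45 had enough reads to be tested. Slc25a54 had a count of 0 in each library, and Slc25a21, the oxodicarboxylate carrier, reached at most 0.59 CPM (a gene's counts relative to all counts of its library, with library sizes scaled by TMM) in any of the 27 libraries.

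The study compared RNA between compartments of the mouse cell in stem cells, neural progenitors and neurons. Polyadenylated RNA over 200 nt was sequenced from the chromatin, the soluble nucleoplasm and the cytoplasm of 3 cell types, with 3 libraries labelled biological replicates in each of the 9 groups. The first cell type, mESC, is the E14 mouse embryonic stem cell line, grown on gelatin with LIF. The second, mNPC, is a neural progenitor line kept in DMEM/F12 with B27, with EGF and FGF added daily at 10 ng/ml. The third, mCtx, is primary cortical neurons plated on poly-L-lysine and cultured for 5 days. No genetic change or drug distinguishes the groups. Each line stands for a single cell source, and the neuron cultures can hold other cells of the cortex. The 3 cell types were separate cultures, so words such as rose, fell and step compare cultures and follow no cells over time. Cell type, source and medium change together and cannot be told apart.

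Carriers of this family are built of repeated modules of a common fold and exchange metabolites across the inner mitochondrial membrane, which is otherwise closed to nearly all charged solutes. They bring ADP and phosphate to the ATP synthase, export ATP and citrate, feed amino acids and cofactors to matrix enzymes and carry electrons inward as part of the malate-aspartate shuttle. Their proteins are made in the cytoplasm and imported, so the cytoplasmic mRNA is the pool available for translation. Polyadenylated RNA of the chromatin and nucleoplasm fractions is read here as nuclear, with a limit given below by transcripts of the mitochondrial genome.

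Both genes of the adenine nucleotide pair and the 2 amino acid carriers that differed most between cell types are shown by the 250 bases before their start site, to set side by side the promoters of genes whose cytoplasmic levels parted. The sequences are those of RefSeq on GRCm38.p6 (the mm10 build), read 5′ to 3′ on the gene's strand. The start sites are RefSeq's, and that of Slc25a4 lies inside the gene as the count table bounds it. Capitals mark every match, on either strand, to CCAAT (the CCAAT box) and to GGGCGG (a site of SP and KLF factors). Slc25a4 lies on the minus strand at chr8:46211063-46211312, Slc25a5 on the plus strand at chrX:36795347-36795596, Slc25a13 on the minus strand at chr6:6217174-6217423 and Slc25a18 on the plus strand at chr6:120773518-120773767.
Slc25a4: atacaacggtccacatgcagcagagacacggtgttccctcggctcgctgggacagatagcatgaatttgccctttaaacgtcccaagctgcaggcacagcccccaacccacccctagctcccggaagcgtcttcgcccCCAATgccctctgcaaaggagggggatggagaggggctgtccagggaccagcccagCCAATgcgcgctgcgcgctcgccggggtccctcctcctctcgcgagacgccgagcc
Slc25a5: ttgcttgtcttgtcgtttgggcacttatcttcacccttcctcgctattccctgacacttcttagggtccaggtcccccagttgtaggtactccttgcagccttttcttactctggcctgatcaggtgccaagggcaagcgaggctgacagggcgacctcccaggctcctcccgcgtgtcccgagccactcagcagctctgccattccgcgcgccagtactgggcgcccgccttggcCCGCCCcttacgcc
Slc25a13: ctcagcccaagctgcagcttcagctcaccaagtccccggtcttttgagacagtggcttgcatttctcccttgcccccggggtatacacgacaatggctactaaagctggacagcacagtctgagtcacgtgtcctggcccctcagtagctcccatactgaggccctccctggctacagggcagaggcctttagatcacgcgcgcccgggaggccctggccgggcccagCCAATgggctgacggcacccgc
Slc25a18: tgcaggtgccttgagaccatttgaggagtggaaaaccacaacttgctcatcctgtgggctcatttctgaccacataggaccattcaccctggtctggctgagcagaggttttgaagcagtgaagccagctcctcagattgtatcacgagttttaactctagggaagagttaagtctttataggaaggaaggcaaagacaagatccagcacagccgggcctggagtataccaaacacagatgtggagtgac
The Slc25a4 window held 2 CCAAT matches and no GGGCGG, while that of its paralog Slc25a5 held a single GGGCGG match, on the opposite strand, and no CCAAT. Most of the Slc25a4 window, with both its matches, lies inside that gene's bounds, which end at 46211284. The other windows shown lie before their genes, so those of the paralogs are not like regions. Slc25a13 had a single CCAAT, and Slc25a18, the window with the lowest GC content of the 4 (48.8%, against 61.6 to 64.8%), had neither. Of the 47 carriers, 36 had a RefSeq window, and these made 46 windows of 250 bases. GGGCGG was found in 32 of the 46, against 32.7% of all 32851 windows of the same length, and CCAAT in 21 of the 46, against 33.8%. The motif of NRF1, a regulator of mitochondrial genes, was found in the windows of 2 members, Slc25a3 and Slc25a31, against 3.74% of all windows. A match is a run of letters and says nothing about binding in these cells.

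Library totals ran from 10622897 to 24537526 counts. The chromatin libraries held 1486 to 7598 TPM (a level per transcript length, relative to all transcripts of the library) of 4 chromatin-retained RNAs (Malat1, Neat1, Meg3 and Kcnq1ot1), against 11.7 to 175 TPM in cytoplasm. All 8 stem cell markers were present at a mean of at least 1 TPM in the mESC cytoplasm and none in the other two cell types. The 9 progenitor markers summed to 8205 to 8503 TPM in mNPC cytoplasm and to 1861 to 2738 TPM in mCtx. Each was lower in mCtx than in mNPC, and most of the mCtx sum was Fabp7 (1840 TPM on average, beside 3882 in mNPC). Nes was at 496 TPM in mNPC and 10.2 TPM in mCtx, and Vim at 2710 and 154 TPM. The 9 neuronal markers summed to 3472 to 3971 TPM in mCtx and to 238 to 317 TPM in mNPC, where most of the sum was Map2 (220 TPM). The 3 mESC libraries numbered 1 stood apart in every fraction: counts of library 1 differed from those of 2 and 3 by a chi-square per degree of freedom of 36.8 to 74.6, and those of 2 and 3 from each other by 12.5 to 19.7. Member counts without these 3 libraries are given in the closing sections, and some single values beside the results they touch. Transcripts of the mitochondrial genome took 0.0371%, 0.385% and 2.51% of cytoplasm counts in mESC, mNPC and mCtx on average, and more of the nucleoplasm counts in each. In such bulk samples, fewer cells of a type and less RNA per cell cannot be told apart.

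Measured per transcript length, the cytoplasmic mRNA of the family was concentrated in few genes. Slc25a5, which exchanges ADP for ATP, and Slc25a3, which imports phosphate, were among the 3 most abundant members in each of the 9 cytoplasm libraries. The other of those 3 was Slc25a4, a second ADP/ATP carrier, in mNPC and mCtx and Slc25a39, a glutathione carrier, in mESC. The summed level of the 47 genes was 2543, 3052 and 2948 TPM in the 3 cytoplasm libraries of mESC, 4548, 4499 and 4472 TPM in mNPC and 2176, 2165 and 2228 TPM in mCtx. The family total of mNPC was thus above every library of the other cell types. Slc25a3, Slc25a4 and Slc25a5 together made up 54.6, 61.4 and 61.1% of that sum in mESC, 69.7, 71.2 and 69.5% in mNPC and 45.9, 45.2 and 42.8% in mCtx. On chromatin the same 3 genes held a smaller part, 25.3, 33.7 and 34.9% in mESC, 39.98, 38.3 and 37.9% in mNPC and 31.3, 31.1 and 30.7% in mCtx, with no overlap with the cytoplasm of the same cell type. Slc25a36, a carrier of pyrimidine nucleotides, was the most abundant member by TPM in 2 of the 3 mESC chromatin libraries.

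The comparison of chromatin with cytoplasm asks how the share of each gene in the polyadenylated RNA differs between these fractions. Each library was scaled to its own total, and the RNA amount of each fraction was not used. A value of 0 is thus an equal share of both fractions and not an equal amount in each. Where most of a gene's RNA lies cannot be read from these values. The carriers did not move as a block: in every cell type some were several-fold higher on chromatin and others several-fold higher in the cytoplasm, with a median near 0. A gene was called when its adjusted p was under 0.05 and it changed by 1 or more on the log2 scale. In mESC, 13 of 45 members were called higher on chromatin and 11 lower, against 34.4% and 21.6% (56% in either direction) of the 18226 genes tested, and the member median was -0.14 beside 0.37 for all genes. In mNPC, 13 were higher and 13 lower, against 27.5% and 21.3% of all genes (48.9% in either direction), with medians of -0.15 and 0.12. In mCtx, 9 were higher and 10 lower, against 26.2% and 24.4% (50.6% in either direction), with medians of -0.24 and 0.00. Adjusted p-values are those of edgeR's quasi-likelihood test with Benjamini-Hochberg adjustment over all 18226 genes, and errors are standard errors (SE). The member counts lay near the shares of all genes in both directions.

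**Figure D1:**
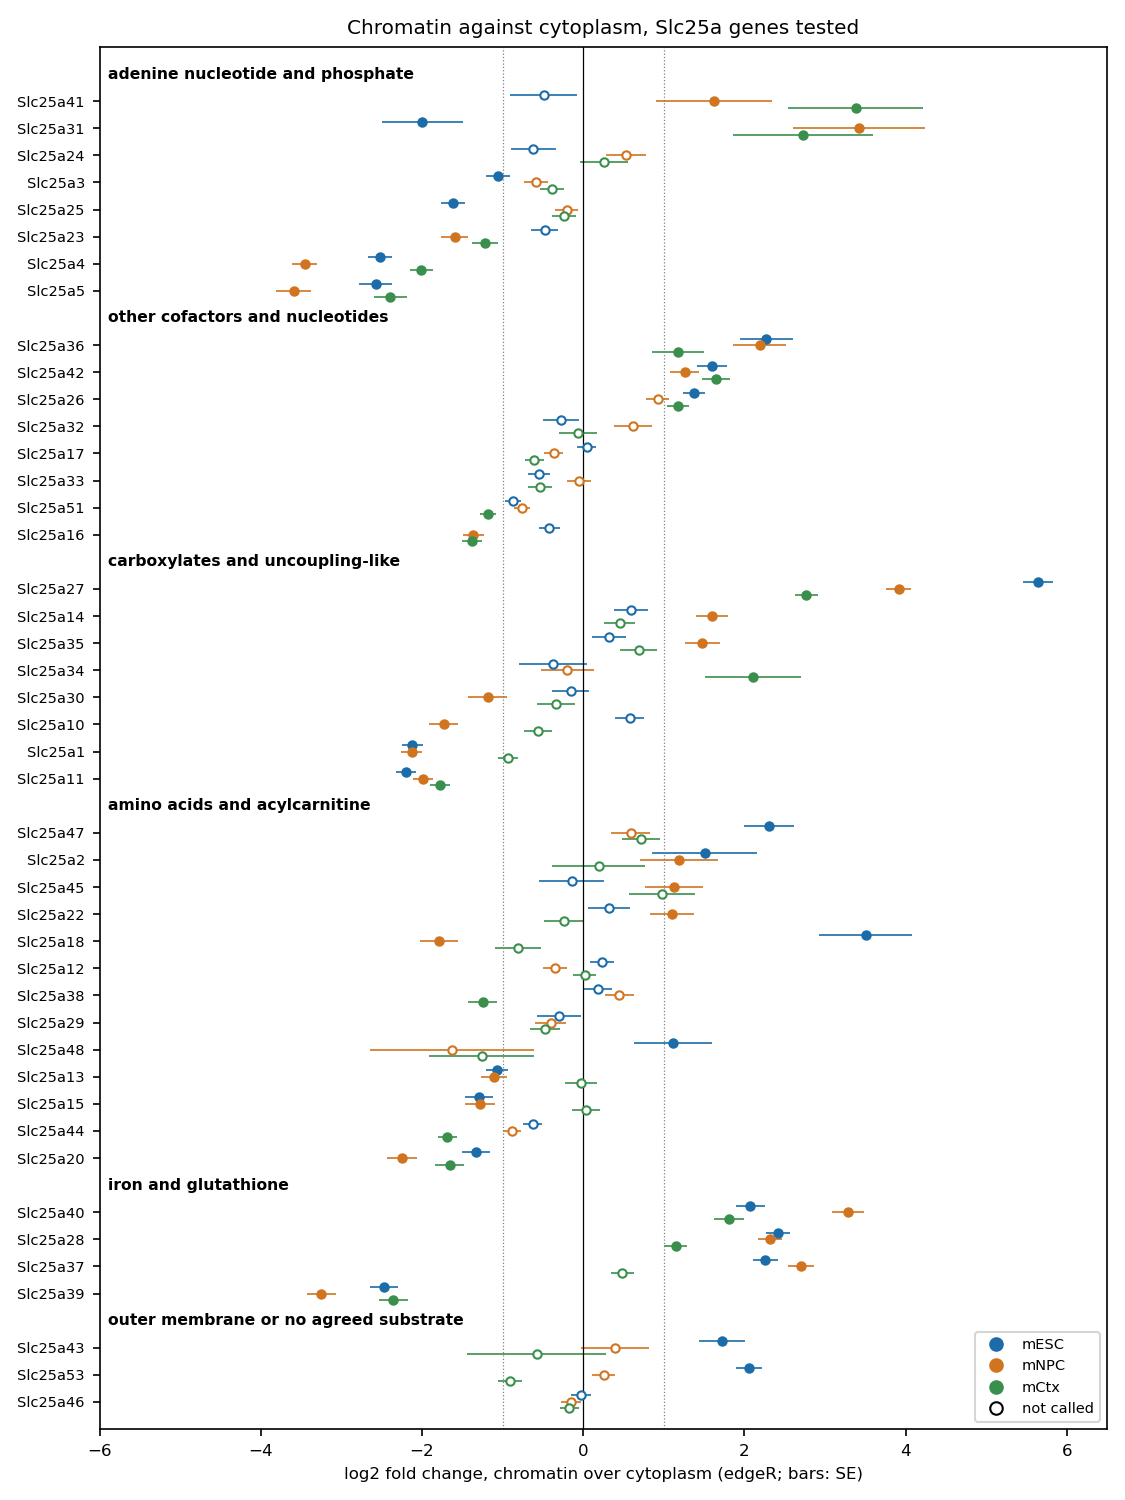
Log2 fold change of chromatin over cytoplasm (x axis) for the carriers reported here (y axis), grouped by what they carry, in mESC, mNPC and mCtx; points are fitted values with SE over 3 libraries a group, filled where called, and dotted lines mark the minimum of 1 in size. Slc25a27, Slc25a28, Slc25a36, Slc25a40 and Slc25a42 lie right of the dotted line in all 3 cell types, and Slc25a4, Slc25a5, Slc25a11, Slc25a20 and Slc25a39 lie left of it; wide bars belong to genes of few reads such as Slc25a31, Slc25a41, Slc25a43 and Slc25a48.

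Called higher on chromatin in all 3 cell types were 5 members (11.1%, beside 12.8% of all genes), Slc25a27, Slc25a28, Slc25a36, Slc25a40 and Slc25a42, and called lower in all 3 were 5 others (11.1%, beside 11.2%), Slc25a4, Slc25a5, Slc25a11, Slc25a20 and Slc25a39. The call in all 3 cell types held for the 5 higher members and for Slc25a4, Slc25a5 and Slc25a39 under each of 11 ways of scaling, filtering and testing, TPM included. Slc25a11 and Slc25a20 kept their sign in TPM but not their call. Members called in no cell type included Slc25a12, Slc25a17, Slc25a24, Slc25a29, Slc25a32, Slc25a33 and Slc25a46, while Slc25a18 and Slc25a31 were called in opposite directions in different cell types.

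Among the carriers of adenine nucleotides and phosphate, the main ADP/ATP carriers were far higher in the cytoplasm. Slc25a5 (chromosome X, 36795651 to 36798807, plus strand, mm10), the ADP/ATP carrier of proliferating cells, had 152, 150.4 and 134 CPM in the mESC chromatin libraries and 613, 991 and 991 CPM in the cytoplasm. It had 188, 141 and 125 CPM on mNPC chromatin and 1737, 1859 and 1876 CPM in mNPC cytoplasm, and 47.2, 48.1 and 44.9 CPM against 244, 262 and 230.0 CPM in mCtx. Every chromatin library lay below every cytoplasm library of its cell type, with log2 fold changes of -2.57 ± 0.21 (SE; edgeR adjusted p = 2.08e-11), -3.59 ± 0.22 and -2.39 ± 0.21, n = 3 a group. Slc25a4 (chromosome 8, 46206797 to 46211284, minus strand), the ADP/ATP carrier of heart, muscle and brain, moved alike, from 715, 747 and 757 CPM in mNPC cytoplasm to 77.4, 63 and 61.99 CPM on chromatin, a log2 fold change of -3.45 ± 0.15 (SE; edgeR adjusted p = 2.32e-16). The change of Slc25a4 was -2.52 ± 0.15 in mESC and -2.01 ± 0.14 in mCtx, again without overlap. Slc25a4 and Slc25a5 are close paralogs, and Slc25a5 has processed pseudogenes, so reads may be shared between them.

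Slc25a3, the phosphate carrier, had 231, 280.1 and 329 CPM on mESC chromatin and 448, 604 and 689 CPM in mESC cytoplasm, a log2 fold change of -1.05 ± 0.15 (SE; edgeR adjusted p = 5.93e-07) that was lost without mESC chromatin library 1 (-0.93) or mESC cytoplasm library 3 (-0.96). In mNPC and mCtx Slc25a3 was not called (-0.59 and -0.38), and on the TPM scale its sign turned in both (0.34 and 0.65). The ATP-Mg/phosphate carriers, which shift the adenine nucleotide content of the matrix in response to calcium, were called lower on chromatin in some cell types: Slc25a25 in mESC (-1.62), and Slc25a23 in mNPC (-1.59) and mCtx (-1.22). Slc25a24 was called in none. On the log2(TPM + 1) scale neither Slc25a25 in mESC (-0.53) nor Slc25a23 in mNPC (-0.67) and mCtx (-0.37) reached a change of 1.

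Slc25a31, the ADP/ATP carrier of the germ line, and Slc25a41, a calcium-independent ATP-Mg/phosphate carrier, rested on few reads. Slc25a31 had 36 counts on mNPC chromatin and 3 in mNPC cytoplasm, a ratio of 11.7 after scaling with a 95% counting interval of 3.71 to 59.5. In mCtx it had 24 counts on chromatin and 3 in cytoplasm, a ratio of 7.54 (2.29 to 39.1), and its call was lost without mCtx cytoplasm library 2. Slc25a41 had 26 counts on mCtx chromatin and 2 in cytoplasm, a ratio of 12.2 (3.07 to 107). On mNPC chromatin Slc25a41 was called higher too (1.63), and leaving out any of 4 libraries in turn lost that call (1.14 at the nearest to 0). In mESC, where Slc25a31 was most abundant, it went the other way, with 0.925, 0.408 and 0.447 CPM on chromatin and 3.83, 1.64 and 1.69 CPM in cytoplasm.

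Of the 9 carriers of other cofactors and nucleotides, 3 were called higher on chromatin in mESC and none lower, 2 higher and 1 lower in mNPC, and 3 higher and 2 lower in mCtx. Slc25a36 (chromosome 9, 97075597 to 97111157, minus strand), which carries pyrimidine nucleotides, had 1080.4, 511 and 411 CPM on mESC chromatin, 627, 266 and 219.5 CPM in nucleoplasm and 197, 92.2 and 125 CPM in cytoplasm. Library 1 of mESC was the highest throughout, by a wide margin in the nuclear fractions. In mNPC the chromatin libraries of Slc25a36 held 351, 375 and 346 CPM and the cytoplasm libraries 74.7, 84.7 and 75.6 CPM, a log2 fold change of 2.19 ± 0.33 (SE; edgeR adjusted p = 1.59e-06). Its change was 2.27 ± 0.33 in mESC and 1.17 ± 0.32 in mCtx, and chromatin lay above cytoplasm without overlap in all 3. Slc25a42 (chromosome 8, 70184340 to 70212305, minus strand), a carrier of coenzyme A, had 59.6, 55.98 and 54.5 CPM on mCtx chromatin and 16.2, 17.3 and 20.6 CPM in cytoplasm. The log2 fold changes of Slc25a42 were 1.60 ± 0.18 in mESC, 1.26 ± 0.18 in mNPC and 1.65 ± 0.18 in mCtx.

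Slc25a26, which imports S-adenosylmethionine, was called higher on chromatin in mESC (1.38) and mCtx (1.18) and stayed just short of the threshold in mNPC (0.92). It overlaps Lrig1 on the opposite strand over 120 bases, and Lrig1 had 119071 counts over all libraries beside 8526 for Slc25a26. The members called lower were Slc25a16, in mNPC (-1.36) and mCtx (-1.38), and Slc25a51, the NAD+ carrier, in mCtx (-1.18). Slc25a17, which is peroxisomal, was called in none of the 3, nor were Slc25a32 and Slc25a33.

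Slc25a27 (chromosome 17, 43641900 to 43667015, minus strand), also known as UCP4 and best known from brain, had the largest chromatin excess of the family in mESC and mNPC. It had 72.7, 73.1 and 89.6 CPM on mESC chromatin, 26.1, 23 and 21.2 CPM in nucleoplasm and 1.25, 1.64 and 1.75 CPM in cytoplasm. In mNPC it had 209.9, 194 and 217, then 30.5, 31.2 and 45.2 and then 15.5, 13.4 and 12 CPM in the same order. In mCtx it had 212, 215 and 220.5, then 64.99, 78.2 and 72.6 and then 28.7, 32.2 and 33.8 CPM. In each cell type the 3 fractions followed this order with no overlap. The chromatin-to-cytoplasm log2 fold change was 5.64 ± 0.19 (SE; edgeR adjusted p = 6.19e-18), 3.91 ± 0.16 and 2.77 ± 0.15, and ran from 4.49 to 6.17, 3.80 to 4.34 and 2.71 to 3.35 over the other scalings, filters and tests.

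The abundant carboxylate carriers went the other way. Slc25a1, which exports citrate for lipid synthesis, had 30.5, 34.05 and 30.2 CPM on mESC chromatin and 121, 155 and 135 CPM in cytoplasm, equal to a log2 fold change of -2.12 ± 0.13 (SE; edgeR adjusted p = 1.93e-13). The change was -2.13 ± 0.13 in mNPC and -0.93 ± 0.13 in mCtx, the last short of a call. On the TPM scale the changes of Slc25a1 in mESC and mNPC were -0.92 and -0.84, and neither was called. Slc25a11, the oxoglutarate carrier of the malate-aspartate shuttle, had 24.7, 23.7 and 26.6 CPM on mESC chromatin against 109, 116 and 119 CPM in cytoplasm, and changed by -2.20 ± 0.12, -1.99 ± 0.12 and -1.77 ± 0.12 in the 3 cell types, beside -0.90, -0.42 and -0.63 on the TPM scale, none of them called. It overlaps the opposite-strand gene Rnf167 by 245 bases, and the strand setting of the counting is not given in the sources used here. Slc25a10, the dicarboxylate carrier, was called lower in mNPC (-1.73), and so was Slc25a30, an uncoupling protein relative (-1.18). On the TPM scale both calls were lost, with Slc25a10 at -0.18 and Slc25a30 turned in sign, at 0.08. Slc25a14, known as UCP5, and Slc25a35, of no agreed substrate, were called higher in mNPC (1.60 and 1.48), and Slc25a34, also without one, in mCtx (2.11, but 0.83 and not called on the TPM scale). Slc25a35 shares 1882 bases with Rangrf on the opposite strand, which has 13602 counts in all libraries beside its own 3006.

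The glutathione carriers were split by gene. Slc25a39 (chromosome 11, 102402985 to 102407946, minus strand), the main mitochondrial glutathione importer, had 70.8, 64.3 and 77.1 CPM on mESC chromatin and 324, 435 and 414 CPM in cytoplasm, equal to a log2 fold change of -2.47 ± 0.18 (SE; edgeR adjusted p = 2.07e-12). It changed by -3.25 ± 0.18 in mNPC and -2.35 ± 0.18 in mCtx. Its paralog Slc25a40 (chromosome 5, 8422850 to 8454790, plus strand), which shares that function, had 80.2, 81.8 and 84.98 CPM on mNPC chromatin and 8.14, 8.32 and 8.94 CPM in cytoplasm, equal to a log2 fold change of 3.28 ± 0.20 (SE; edgeR adjusted p = 7.7e-14). It changed by 2.08 ± 0.18 in mESC and 1.81 ± 0.19 in mCtx. The TPM ratio of Slc25a39 to Slc25a40 was 0.879, 0.863 and 0.8002 on mNPC chromatin and 50.98, 54.5 and 65.1 in mNPC cytoplasm, so that the 2 glutathione carriers were near parity on chromatin and far apart in the cytoplasm.

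Both mitoferrins, which import iron for heme and iron-sulfur clusters, were called higher on chromatin in mESC and mNPC. Slc25a28 (mitoferrin 2; chromosome 19, 43663822 to 43674881, minus strand) had 121, 142 and 175 CPM on mESC chromatin and 25.4, 29.4 and 26.7 CPM in cytoplasm, and changed by 2.42 ± 0.15, 2.32 ± 0.15 and 1.15 ± 0.14. Slc25a37 (mitoferrin 1) had 53.7, 56.8 and 61.3 CPM on mNPC chromatin against 8.05, 7.49 and 11.03 CPM in cytoplasm, equal to a log2 fold change of 2.70 ± 0.16 (SE; edgeR adjusted p = 4.61e-14). In mESC it changed by 2.26 ± 0.15, and in mCtx by 0.49 ± 0.15, which was not called in the counts but was on the TPM scale (1.38; limma adjusted p = 2.35e-08). The difference of Slc25a37 between mCtx and mNPC was itself called, at -2.22 ± 0.21 (SE; edgeR adjusted p = 1.9e-08), and on the TPM scale at -1.80.

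**Figure D2:**
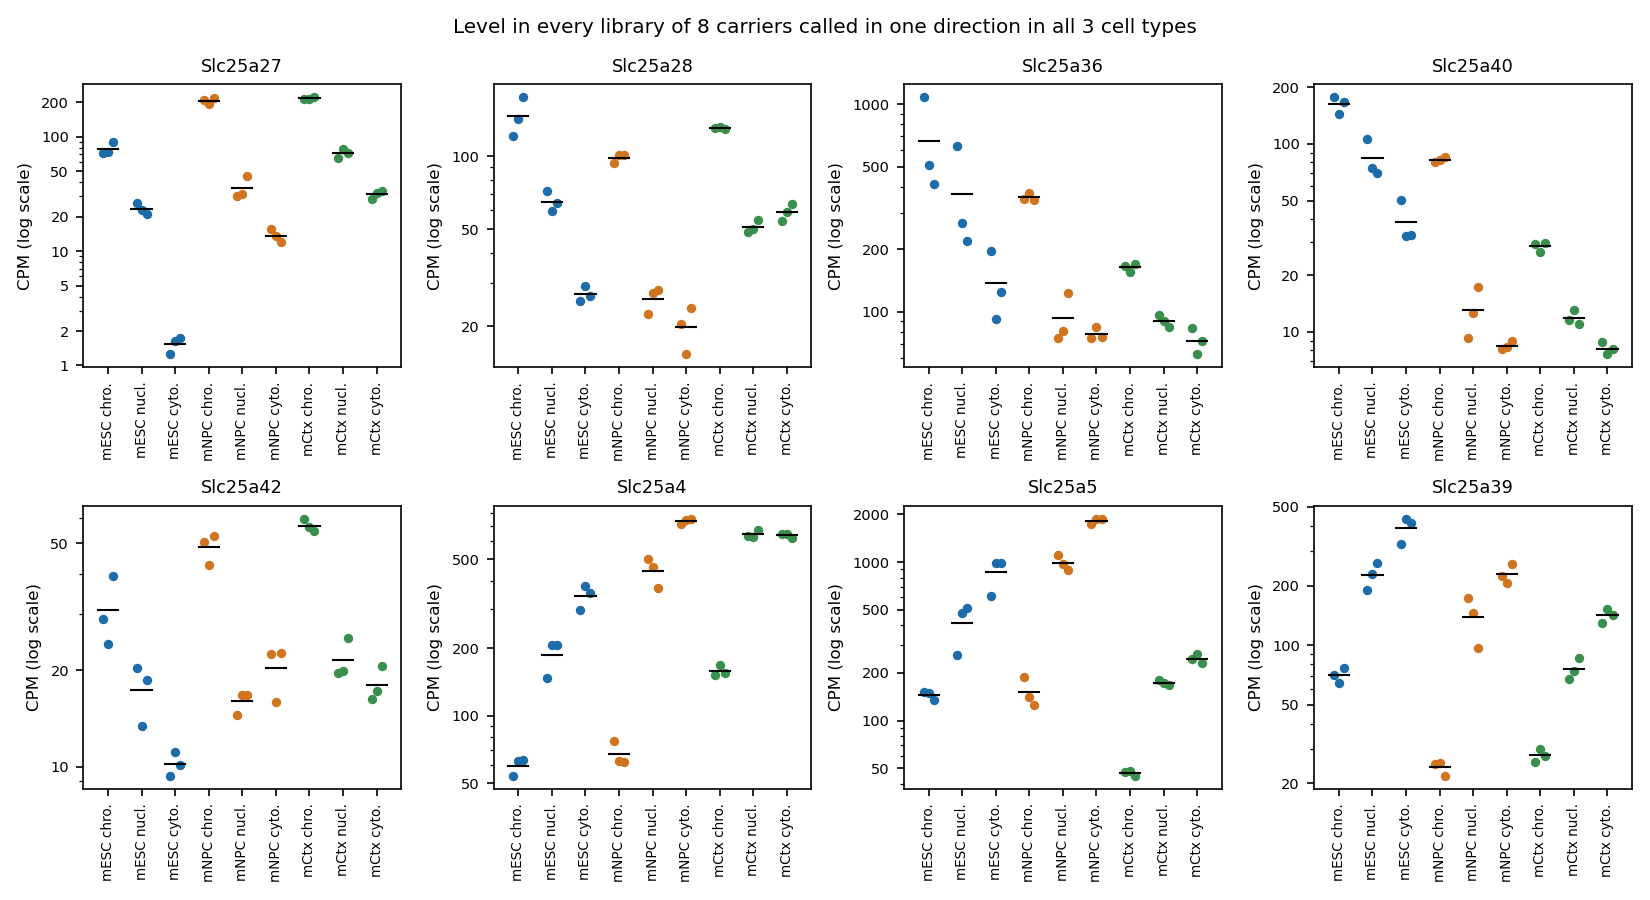
Levels in CPM (log y axis) of 8 carriers in every library, by cell type and fraction (chro., chromatin; nucl., nucleoplasm; cyto., cytoplasm); points are libraries, bars the means of 3. Slc25a27, Slc25a28, Slc25a36, Slc25a40 and Slc25a42 are highest on chromatin in each cell type, and Slc25a4, Slc25a5 and Slc25a39 are lowest there; the mESC library 1 of Slc25a36 reaches 1080.4 CPM on chromatin.

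Of the 13 amino acid and acylcarnitine carriers, 4 were called higher on chromatin and 3 lower in mESC, 3 and 4 in mNPC, and 0 and 3 in mCtx. Slc25a20, which brings acylcarnitines in for fatty acid oxidation, was lower in all 3, by -1.33 ± 0.18, -2.24 ± 0.19 and -1.66 ± 0.18. The ornithine carrier Slc25a15 was lower in mESC (-1.29) and mNPC (-1.28), and so was Slc25a13 (-1.07 and -1.11), whose mESC call was lost without mESC cytoplasm library 1 (-0.94). In mCtx the carriers called lower were Slc25a20, Slc25a38, which brings glycine in for heme synthesis (-1.25), and Slc25a44, a carrier of branched-chain amino acids (-1.69). Higher on chromatin were Slc25a22 in mNPC (1.10), Slc25a45 in mNPC (1.13), Slc25a47 in mESC (2.30), Slc25a48 in mESC (1.11) and Slc25a2, a second ornithine carrier, in mESC (1.51) and mNPC (1.19). Slc25a2 and Slc25a48 reached at most 1.08 and 1.41 CPM in any library, and these calls of both were lost in DESeq2. The call of Slc25a45 was lost without mNPC chromatin library 1 (0.76) or mNPC cytoplasm library 2 (0.98).

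Slc25a18 was called in opposite directions. In mESC it had 2.73, 2.04 and 0.403 CPM on chromatin and 0.147, 0.226 and 0.0582 CPM in cytoplasm, the latter from 7 counts in 3 libraries, a log2 fold change of 3.51 ± 0.58. In mNPC it had 72.6, 72.2 and 69.6 CPM on chromatin and 232, 238 and 271 CPM in cytoplasm, equal to a log2 fold change of -1.79 ± 0.24. The difference between the cell types was -5.30 ± 0.60 (SE; edgeR adjusted p = 8.51e-08). Over all scalings, filters and tests this difference ran from -5.52 to -2.93, and the mESC change from 1.25 to 4.05. Chromatin lay above cytoplasm in every mESC library and below it in every mNPC library.

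Slc25a46, an outer membrane protein of mitochondrial dynamics, had a similar share of both fractions. It had 49.9, 51.7 and 54.8 CPM on mESC chromatin and 57.7, 51.8 and 50.3 CPM in cytoplasm. Its changes were -0.03, -0.15 and -0.17 in mESC, mNPC and mCtx. Slc25a53, of no agreed substrate, had 17.7, 21.04 and 16.5 CPM on mESC chromatin and 3.54, 5.53 and 4.13 CPM in cytoplasm, equal to a log2 fold change of 2.06 ± 0.16 (SE; edgeR adjusted p = 1.15e-11), and was not called in mNPC (0.26) or mCtx (-0.91). It overlaps Zcchc18 on the opposite strand over 5318 bases, and Zcchc18 had 35325 counts over all libraries beside 9838 for Slc25a53. Slc25a43 was called higher on chromatin in mESC (1.72) and had 2 counts on chromatin and 3 in cytoplasm over the 3 mCtx libraries of each.

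Other mitochondrial gene lists are given for the same contrast. All 15 ATP synthase subunit genes were called lower on chromatin in each cell type, with medians of -2.05, -2.69 and -2.12 in mESC, mNPC and mCtx. Of 15 genes of carrier import (the TOM and TIM22 complexes and their chaperones), 11, 12 and 12 were lower, with medians of -1.86, -2.38 and -2.28, and 1, Timm9, was higher in mESC (1.11). Of 18 citric acid cycle genes, 13, 10 and 7 were lower and none higher. The 19 other inner membrane transporters, such as the calcium uniporter and the pyruvate carrier, were mixed, with 5, 3 and 2 higher and 3, 7 and 6 lower. Among carriers under other symbols, Ucp2, which exports C4 metabolites, was lower in all 3 (-3.48, -3.42 and -3.71).

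**Figure D3:**
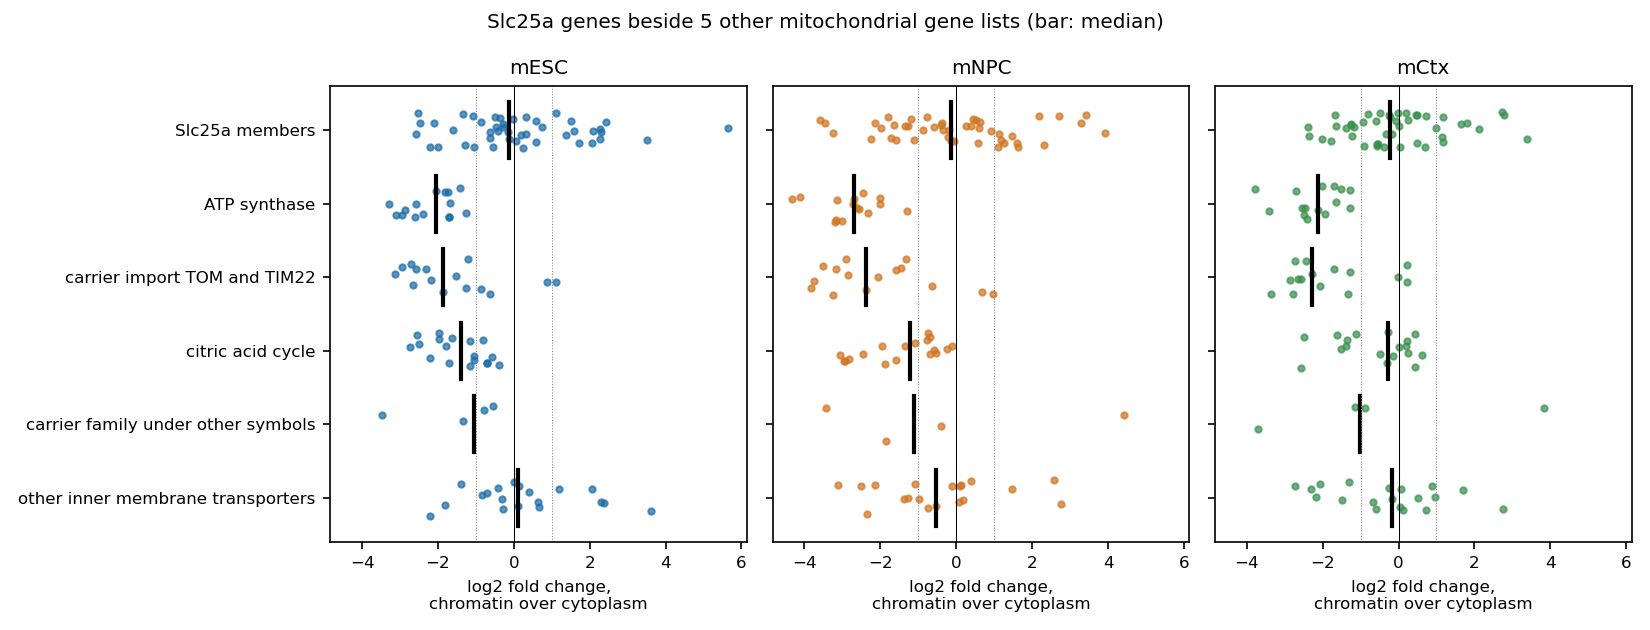
Log2 fold change of chromatin over cytoplasm (x axis) of the Slc25a members and of 5 other mitochondrial lists (rows) in each cell type; points are genes, bars are medians, and dotted lines mark a change of 1 in size. The ATP synthase genes all lie left of -1, whereas the carriers spread to both sides, with medians of -0.14, -0.15 and -0.24.

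Gene structure was described beside these values. Across the 45 members, Spearman's rho of the chromatin-to-cytoplasm log2 fold change with the length of the gene from start to end was 0.320 in mESC, 0.255 in mNPC and 0.203 in mCtx, beside 0.292, 0.223 and 0.258 over 15605 protein-coding genes. The deposited length equals that distance in every gene, so introns lie inside the counted region. The 14 members longer than 30 kb had a median of 0.85 in mESC, 0.33 in mNPC and 0.00 in mCtx, and the 14 shorter than 10 kb had medians of -0.43, -0.39 and -0.31. Of the members lower in all 3 cell types, Slc25a5, Slc25a4, Slc25a11 and Slc25a39 span 3.16, 4.49, 3.28 and 4.96 kb, and Slc25a20 spans 22.5 kb. Of those higher in all 3, Slc25a27, Slc25a36, Slc25a40 and Slc25a42 span 25.1, 35.6, 31.9 and 28.0 kb, and Slc25a28 spans 11.1 kb.

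On TPM, which was estimated on transcripts, the same genes stood at the ends of the order, but the whole scale was shifted toward chromatin. The median of all genes was 0.806, 0.758 and 0.588 on the log2(TPM + 1) scale in mESC, mNPC and mCtx, and the members called were 15 higher and 5 lower, 16 and 5, and 9 and 3. Of the 24361 genes fitted there, 10475 were higher and 1958 lower, 10019 and 2076, and 8824 and 2028. Higher calls thus made up 84.3%, 82.8% and 81.3% of those of all genes, beside 75.0%, 76.2% and 75.0% of those of members. Scaling by library totals in place of TMM moved the median of all genes to 0.883, 0.433 and 0.239, and gave 16 higher and 7 lower members, 14 and 10, and 10 and 7. Of the 18226 genes tested, 8100 were then higher and 2485 lower, 6124 and 3085, and 5653 and 3597. Of the 24 members called on mESC chromatin, 14 were called the same way on the TPM scale, 8 were not and 2 had too little TPM to be fitted. Beside those already given, the calls lost were of Slc25a2 (0.84), Slc25a3 (-0.29), Slc25a15 (-0.81), Slc25a20 (-0.73) and Slc25a26 (0.84). Of the 26 in mNPC, 16 were called the same way and 9 were not, the others among these being Slc25a13 (-0.70), Slc25a15 (-0.65), Slc25a16 (-0.60) and Slc25a41 (0.41). Of the 19 in mCtx, 8 were called the same way and 10 were not, the others being Slc25a16 (-0.42), Slc25a20 (-0.90), Slc25a26 (0.99), Slc25a38 (-0.32), Slc25a41 (0.28), Slc25a44 (-0.98) and Slc25a51 (-0.33). Slc25a30 in mNPC was the single called member whose sign turned in these 3 comparisons. Members called on the TPM scale alone included Slc25a10 (1.89), Slc25a22 (1.06), Slc25a35 (1.13), Slc25a38 (1.08) and, lower and just past the minimum size, Slc25a33 in mESC, Slc25a38 (1.58), Slc25a43 (1.53), Slc25a47 (1.38) and Slc25a53 (1.23) in mNPC, and Slc25a12 (1.27) and Slc25a35 (1.16) in mCtx. Relative to any of these medians, Slc25a4, Slc25a5 and Slc25a39 were low and Slc25a27, Slc25a36 and Slc25a40 high.

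**Figure D4:**
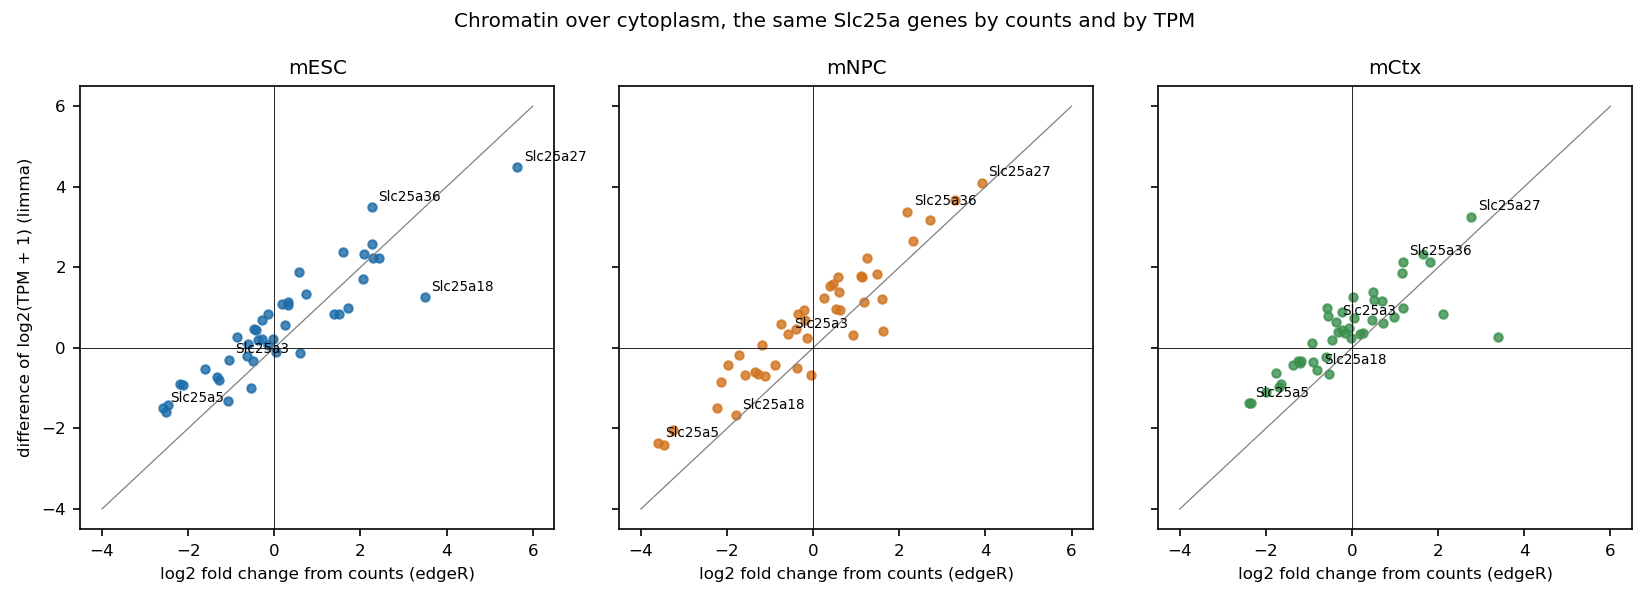
Chromatin over cytoplasm for the same Slc25a genes from counts (x axis, edgeR log2 fold change) and from TPM (y axis, difference of mean log2(TPM + 1)) in each cell type; each point is a gene and the grey line marks equal values. Slc25a27 has the highest TPM difference in each panel, Slc25a5 is at the lower left, and most points lie above the line.

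The nucleoplasm was closer to the cytoplasm than chromatin was. In mESC, 6 members were called higher in nucleoplasm and 3 lower, against 27.5% and 8.95% of all genes (36.5% in either direction), with a member median of -0.22 beside 0.04. In mNPC, 2 were higher and 3 lower, against 16.4% and 8.56% (25% in either direction), with a member median of -0.41 beside -0.04. In mCtx, 1 was higher and 2 lower, against 11.7% and 9.57% (21.3% in either direction), with a member median of -0.20 beside 0.00. Only Slc25a27 was called higher in the nucleoplasm of all 3 cell types in the counts, by 3.90 ± 0.18 (SE; edgeR adjusted p = 1.54e-15), 1.37 ± 0.15 and 1.19 ± 0.14. On the TPM scale its values were 2.14, 0.47 and 0.86, and only the first was called.

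The other members called higher in the mESC nucleoplasm were all called higher on mESC chromatin too. They were Slc25a37 (1.61), Slc25a36 (1.43), Slc25a28 (1.26), Slc25a40 (1.12) and Slc25a43 (1.00). Both comparisons use the same 3 mESC cytoplasm libraries, so a low cytoplasm level raises both values. Of all genes, 34.4% were called higher on mESC chromatin and 27.5% in the nucleoplasm, and the share called in both was not counted. Without mESC nucleoplasm library 1 the calls of Slc25a36 (0.71), Slc25a40 and Slc25a43 were lost, and that of Slc25a43 (1.00 with the replicate number as a block) was lost with the block too, under which Slc25a31 was called lower (-1.05; edgeR adjusted p = 0.00739). Lower there were Slc25a25 (-1.23), Slc25a13, with 75.4, 75.9 and 75.8 CPM in nucleoplasm and 200.0, 154 and 172 CPM in cytoplasm (-1.21), and Slc25a5 (-1.06). In mNPC, Slc25a37 was higher (1.19), and Slc25a30 (-1.42), Slc25a23 (-1.22) and Slc25a10 (-1.20) lower. In mCtx, Slc25a16 (-1.24) and Slc25a18 (-1.08) were lower, and the latter was not called without mCtx nucleoplasm library 2 (-0.95). Slc25a5 in mESC was not called without mESC nucleoplasm library 1 (-0.89), nor Slc25a10 in mNPC without mNPC nucleoplasm library 3 (-0.84). On the TPM scale the calls of Slc25a5 (-0.97), Slc25a25 (-0.94), Slc25a28 (0.54), Slc25a40 (0.76) and Slc25a43 (0.34) in mESC, of Slc25a37 (0.57) in mNPC and of Slc25a18 (-0.90) in mCtx were lost. Library totals as the scale gave 1 member higher and 9 lower in mNPC, where 42.2% of all calls were then higher, beside 65.7% under TMM.

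The cytoplasm was then compared between cell types. These comparisons share libraries in pairs, so their values are set side by side. From mESC to mNPC, 17 of 45 members were called higher and 11 lower, against 29.8% and 29.6% of all genes (59.4% in either direction), with a member median of 0.41 beside -0.01. From mNPC to mCtx, 6 were higher and 8 lower, against 24.4% and 20% (44.4% in either direction), with a member median of -0.11 beside 0.00. Between mCtx and mESC, 13 were higher and 14 lower, against 35.7% and 32.2% (67.9% in either direction), with a member median of 0.24 beside 0.06. Size factors of the relative log expression kind lowered the mESC to mNPC median of all genes to -0.16. They gave 13 higher and 12 lower members, beside 5057 higher and 5782 lower of all 18226 genes. From mNPC to mCtx they gave 6 and 8, as before. On the TPM scale 21 of the 28 members called between mNPC and mESC were called the same way, 11 of 14 between mCtx and mNPC, and 21 of 27 between mCtx and mESC. Not called there were Slc25a2 (0.28), Slc25a14 (0.94), Slc25a22 (-0.96), Slc25a43 (-0.99) and Slc25a45 (0.68) in the first, Slc25a29 (0.91), Slc25a43 (-0.27) and Slc25a45 (-0.68) in the second, and Slc25a3 (-0.92), Slc25a24 (-0.50), Slc25a28 (0.45), Slc25a34 (-0.58) and Slc25a35 (-0.86) in the third. Slc25a31, and Slc25a48 in the first, had too little TPM to be fitted.

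The 2 glutamate carriers exchanged places. Slc25a18 (chromosome 6, 120773768 to 120793982, plus strand), the second glutamate carrier, known from astrocytes, had 0.147, 0.226 and 0.0582 CPM in mESC cytoplasm, 232, 238 and 271 CPM in mNPC and 5.12, 5.79 and 5.11 CPM in mCtx. The log2 fold change was 10.67 ± 0.43 (SE; edgeR adjusted p = 7.61e-18) from mESC to mNPC, where it depends on 7 mESC counts, and -5.53 ± 0.29 (SE; edgeR adjusted p = 2.63e-15) from mNPC to mCtx. Slc25a22 (chromosome 7, 141429739 to 141437892, minus strand), the first glutamate carrier, whose loss in people gives an epileptic encephalopathy, had 16.9, 32.01 and 41 CPM in mESC, 12.1, 11.3 and 14.01 CPM in mNPC and 162, 170.0 and 183 CPM in mCtx. It fell from mESC to mNPC (-1.27 ± 0.27) and rose from mNPC to mCtx, by 3.79 ± 0.29 (SE; edgeR adjusted p = 6.05e-12). The TPM ratio of Slc25a22 to Slc25a18 was 0.0509, 0.0417 and 0.0423 in mNPC cytoplasm and 28.1, 22.4 and 30.2 in mCtx cytoplasm. The 5 astrocyte markers summed to 161 to 254 TPM in mNPC cytoplasm and to 20.9 to 21.7 TPM in mCtx, with Gfap at 31.6 and S100b at 46.6 TPM in mNPC, and their part in the Slc25a18 result was not tested.

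The 2 aspartate-glutamate carriers of the malate-aspartate shuttle also parted between cell types. Slc25a13 (citrin; chromosome 6, 6041218 to 6217118, minus strand), best known from liver, had 200.0, 154 and 172 CPM in mESC cytoplasm, 7.75, 8.15 and 9.39 CPM in mNPC and 2.05, 1.81 and 2.05 CPM in mCtx. The 3 cell types did not overlap, and the log2 fold changes were -4.38 ± 0.16 (SE; edgeR adjusted p = 1.24e-18) to mNPC and -2.09 ± 0.18 from there to mCtx. Slc25a12 (aralar; chromosome 2, 71271063 to 71367749, minus strand), the form of brain and muscle, had 50.3, 80.6 and 98.8 CPM in mESC, 87.2, 93.3 and 80.4 CPM in mNPC and 88.9, 95.4 and 96.9 CPM in mCtx, with all 3 overlapping. It was called in none of the 3 comparisons, with the largest change of 0.29 ± 0.15 between mCtx and mESC. On the TPM scale its sign was the opposite there, at -0.77 (limma adjusted p = 0.000335), and it was -0.72 between mNPC and mESC, both short of the minimum size of a call. The TPM ratio of Slc25a12 to Slc25a13 was 0.612, 1.26 and 1.30 in mESC cytoplasm, 12.3, 12.9 and 10.05 in mNPC and 40, 57.97 and 51.05 in mCtx.

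**Figure D5:**
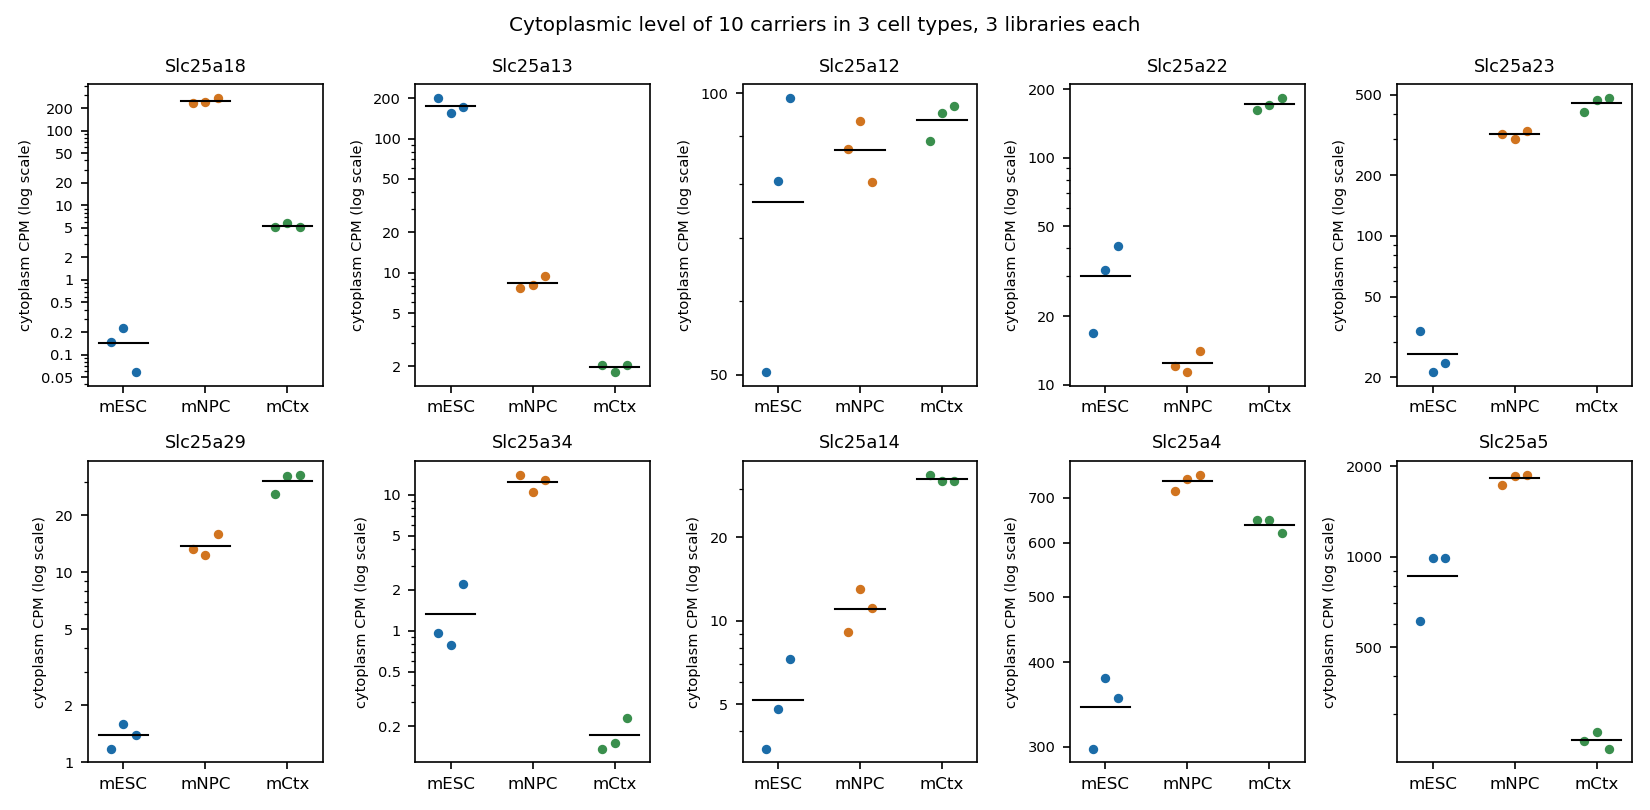
Cytoplasmic levels in CPM (log y axis) of 10 carriers in mESC, mNPC and mCtx; points are the 3 libraries of a cell type and bars their means. Slc25a18 peaks in mNPC at 232 to 271 CPM, where Slc25a22 is lowest, Slc25a13 falls at each step while Slc25a12 shows no called change, and Slc25a5 is lowest in mCtx, where Slc25a4 stays above its mESC level.

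The 2 main ADP/ATP carriers also changed places. Slc25a5 had 613, 991 and 991 CPM in mESC cytoplasm, 1737, 1859 and 1876 CPM in mNPC and 244, 262 and 230.0 CPM in mCtx, and its log2 fold change from mNPC to mCtx was -2.89 ± 0.21 (SE; edgeR adjusted p = 2.14e-12). Slc25a4 had 298, 379 and 355 CPM, 715, 747 and 757 CPM and 648, 648 and 620.1 CPM, with a change of -0.21 ± 0.14 from mNPC to mCtx. The TPM ratio of Slc25a4 to Slc25a5 was 0.291, 0.238 and 0.216 in mESC cytoplasm, 0.261, 0.245 and 0.249 in mNPC and 1.58, 1.48 and 1.61 in mCtx. The chromatin libraries gave the same order, with ratios of 0.222, 0.237 and 0.267 in mNPC and 1.84, 1.92 and 1.93 in mCtx. The rise of both from mESC to mNPC (1.11 and 1.08) was not called with relative log expression scaling (0.97 and 0.94) or without the mESC libraries numbered 1 (1.00 and 0.87).

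Among the other carriers of that role, Slc25a23, an ATP-Mg/phosphate carrier of brain, rose from 33.7, 21.2 and 23.5 CPM in mESC to 319.5, 303 and 329.6 CPM in mNPC and 412, 471 and 479.9 CPM in mCtx, log2 fold changes of 3.61 ± 0.18 (SE; edgeR adjusted p = 7.73e-16) and 4.12 ± 0.18 against mESC. Slc25a25 was higher than in mESC in mNPC (1.30) and mCtx (1.15). Slc25a24 was higher in mNPC than in mESC (1.31) and lower in mCtx than in either, with log2 fold changes of -2.38 and -1.07, the latter lost without the mESC libraries numbered 1 (-0.62). Slc25a3 was lower in mCtx than in mNPC (-1.10) and mESC (-1.04, but -0.97 and not called without mESC cytoplasm library 3). Slc25a31 had 110 counts in mESC cytoplasm and 3 in each of the others, ratios to mNPC and mCtx of 41.5 (13.8 to 204) and 42.7 (14.2 to 210.3). Slc25a41, with 110 counts in mESC and 2 in mCtx, was 64.1 times higher in mESC (17.3 to 536). It was also called lower in mNPC, with log2 fold changes from -4.59 to -1.51 over all scalings, filters and tests.

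Of the 3 uncoupling protein relatives, Slc25a27 and Slc25a14 were highest in mCtx. Slc25a27 had 1.25, 1.64 and 1.75 CPM in mESC cytoplasm, 15.5, 13.4 and 12 CPM in mNPC and 28.7, 32.2 and 33.8 CPM in mCtx, with changes of 3.13 ± 0.19 and 1.20 ± 0.15. Slc25a14 had 3.46, 4.80 and 7.28 CPM, 9.13, 13 and 11.1 CPM and 33.7, 31.9 and 31.9 CPM, and its change from mNPC to mCtx was 1.55 ± 0.20 (SE; edgeR adjusted p = 1.18e-07). Its change from mESC to mNPC (1.08) was not called without the mESC libraries numbered 1 (0.86). Slc25a30, the other relative, was instead lower in mCtx than in mESC (-1.24). Slc25a34 was highest in mNPC, at 0.957, 0.79 and 2.21 CPM in mESC, 13.99, 10.5 and 12.8 CPM in mNPC and 0.137, 0.151 and 0.228 CPM in mCtx, changes of 3.22 ± 0.38 and -6.08 ± 0.50. Slc25a10 was higher than in mESC in both neural cell types (2.20 and 1.25), Slc25a35 lower in mCtx (-1.07, but -0.92 without mESC cytoplasm library 2), and the abundant Slc25a1 and Slc25a11 were called in no comparison of cytoplasms.

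Among amino acid carriers, Slc25a29, which carries basic amino acids, rose at each step, from 1.18, 1.58 and 1.40 CPM in mESC to 13.2, 12.3 and 15.9 CPM in mNPC and 25.9, 32.1 and 32.6 CPM in mCtx, by 3.30 ± 0.24 (SE; edgeR adjusted p = 1.19e-12) and then 1.14 ± 0.19. The ornithine carrier Slc25a15 fell from 63.6, 88.6 and 103 CPM in mESC to 22.6, 28.8 and 26.1 CPM in mNPC and had 19.9, 18.6 and 17.1 CPM in mCtx, a change of -1.72 ± 0.18 at the first step. Against mESC, Slc25a44 was higher in mNPC (1.64) and mCtx (2.25), and so was Slc25a47 (3.04 and 3.22). Slc25a45 was higher in mNPC than in mESC (1.02, but 0.60 without the mESC libraries numbered 1) and lower in mCtx than in mNPC (-1.57). Slc25a2 was called higher and Slc25a48 lower in mNPC than in mESC (1.61 and -2.07), both below 1 CPM. Slc25a20 and Slc25a38 were called in none.

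Of the 9 cofactor carriers, 3 were called between mNPC and mESC, none between mCtx and mNPC and 2 between mCtx and mESC, and of the 4 iron and glutathione carriers 2, 2 and 3. Slc25a51, the NAD+ carrier, rose from 49.8, 52.3 and 49.1 CPM in mESC to 136, 133 and 133 CPM in mNPC and 204, 209 and 203 CPM in mCtx, by 1.41 ± 0.10 (SE; edgeR adjusted p = 8.17e-13) and 2.03 ± 0.10 against mESC. It was the single one of the 9 cofactor carriers called higher in a neural cell type. Slc25a32, the folate and FAD carrier, was lower than in mESC in both (-1.55 and -1.53), and Slc25a33, a pyrimidine nucleotide carrier, in mNPC (-1.43). Slc25a40 fell from 50.5, 32.5 and 32.9 CPM in mESC to 8.14, 8.32 and 8.94 CPM in mNPC, a change of -2.19 ± 0.19 (SE; edgeR adjusted p = 8.15e-11), and stayed at 8.81, 7.60 and 8.07 CPM in mCtx. Slc25a39 was called lower in mCtx than in mESC (-1.46). Both mitoferrins were higher in mCtx than in mNPC, Slc25a28 with 54.1, 58.7 and 63.4 against 20.4, 15.3 and 23.7 CPM (1.57 ± 0.15) and Slc25a37 by 1.51 ± 0.16. Slc25a37 was also lower in mNPC than in mESC (-1.10, a call lost without mNPC cytoplasm library 2). Slc25a53 was higher than in mESC in both (2.95 and 2.51), Slc25a43 lower in both, with 70 counts in mESC and 3 in mCtx, a ratio of 27.2 (8.93 to 135), and Slc25a46 was not called.

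The chromatin-to-cytoplasm change itself was compared between cell types. From mESC to mNPC it rose for 7 members and fell for 9, against 10.3% and 17.7% of all genes (28% in either direction), and from mNPC to mCtx it rose for 7 and fell for 8, against 7.68% and 11.4% (19% in either direction). For Slc25a10, the cytoplasmic level went from 11.1, 11.9 and 10.4 CPM in mESC to 53.2, 46.8 and 54.3 CPM in mNPC, and the chromatin level from 16.6, 16.2 and 17.3 to 15.6, 15.5 and 15.3 CPM. Only the cytoplasm libraries thus differed widely between the cell types, and the difference was -2.31 ± 0.25 (SE; edgeR adjusted p = 5.48e-08). At the second step Slc25a37 (-2.22), Slc25a38 (-1.70) and Slc25a40 (-1.47) fell most, and Slc25a34 (2.31, but 0.16 and not called on the TPM scale), Slc25a4 (1.45) and Slc25a15 (1.31) rose most.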

How the data were processed

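Polyadenylated RNA was sequenced as stranded 100 bp paired-end libraries, per the labels' protocols. The submitters' processing notes name STAR, featureCounts, kallisto 0.43.0 and mm10. The authors deposited raw counts per gene (37332 genes) and TPM (53379 genes, 35509 in both). Gene symbols came from GENCODE M21. The options, strand setting and annotation release of the counting are, in the sources used here, not given.

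The count model was that of edgeR 4.0.16, run under R 4.3.3: TMM scaling, filterByExpr (18226 genes kept), 1 quasi-likelihood fit over all 9 groups, and Benjamini-Hochberg adjustment over all genes in each of 11 contrasts. A call needed an adjusted p under 0.05 and a log2 fold change of at least 1 in size. SE was the log2 fold change divided by the root of F. The fits were tested on simulated data. TPM was tested as log2(TPM + 1) with limma 3.58.1. Where a member had 1 to 3 counts in a group, an exact 95% interval of the ratio covers counting error only. Depth was 10622897 to 24537526 counts a library. No 2 replicates were identical, and the smallest chi-square per degree of freedom between replicates was 3.34.

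Same-numbered mESC libraries deviated together (correlations of 0.310 to 0.716 between fractions), so the numbers pair them; elsewhere some pair was under 0.1. The members and gene lists were chosen with earlier results of these data known. By rule, values in every library were given for the 2 members of each of 6 roles with the highest mean TPM and, in each contrast, for the 3 called members of largest change in each direction averaging at least 10.0 CPM in either group and no overlap of libraries; other called members were named with their log2 fold change. A member that this rule names is counted in the totals but not reported here. Alternatives were other scalings (relative log expression, library totals), filters, DESeq2 1.42.0, TPM with pseudocounts of 1 and 0.1 and a replicate block. Further ones were the compared groups alone, no minimum fold change, and leaving out mitochondrially encoded genes or libraries.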

Additional observations from a re-analysis of the deposited data

Results flagged for a closer look

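The chromatin-to-cytoplasm change differed between mNPC and mESC for 16 of 45 members, beside 28% of all genes, and between mCtx and mNPC for 15 of 45, beside 19%, by edgeR's test of the difference itself, with adjusted p under 0.05 and a size of at least 1 on the log2 scale (n = 3 libraries a group). From mESC to mNPC the change rose for Slc25a31 (5.42, from few reads), Slc25a41 (2.11), Slc25a25 (1.41), Slc25a40 (1.21), Slc25a35 (1.16), Slc25a24 (1.15, but 0.67 and not called without the mESC libraries numbered 1) and Slc25a14 (1.00, but 0.99 and not called with the replicate number as a block). It was lower in mNPC for Slc25a18 (-5.30), Slc25a10 (-2.31), Slc25a53 (-1.80), Slc25a27 (-1.73), Slc25a47 (-1.71), Slc25a43 (-1.33), Slc25a23 (-1.12), Slc25a30 (-1.03, but -0.94 and not called with the block) and Slc25a5 (-1.02). On the log2(TPM + 1) scale 6 of these 16 were called the same way and Slc25a31 had too little TPM to be fitted. The sign of Slc25a43 turned there (0.52) and so did that of Slc25a30, at a value near 0 (0.01), and Slc25a27 (-0.39), Slc25a53 (-0.48), Slc25a41 (0.74), Slc25a47 (-0.85), Slc25a35 (0.70), Slc25a24 (0.87) and Slc25a5 (-0.86) were not called. Leaving out 1 of the 12 libraries also ended a call of this difference, for Slc25a43 with 9 of them in turn, Slc25a41 with 8, Slc25a5 with 7, Slc25a14 with 6, Slc25a30 with 4, Slc25a35 with 2, and Slc25a23, Slc25a24 and Slc25a40 with 1 each. The values nearest 0 were -0.99, 1.63, -0.89, 0.59, -0.69, 0.86, -0.95, 0.52 and 0.81 in that order. Without the mESC libraries numbered 1, Slc25a40 (0.90), Slc25a5 (-0.94) and Slc25a14 (0.91) were not called either.

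From mNPC to mCtx the change rose for Slc25a34 (2.31), Slc25a4 (1.45), Slc25a15 (1.31), Slc25a1 (1.20), Slc25a5 (1.20), Slc25a10 (1.17) and Slc25a13 (1.08). It was lower in mCtx for Slc25a37 (-2.22), Slc25a38 (-1.70), Slc25a40 (-1.47), Slc25a22 (-1.34), Slc25a28 (-1.17), Slc25a53 (-1.17), Slc25a14 (-1.15) and Slc25a27 (-1.14). Slc25a5 and Slc25a10 were lower at the first step and higher at the second, and Slc25a14 and Slc25a40 the reverse; the mNPC libraries enter both comparisons. On the log2(TPM + 1) scale 7 of these 15 were called the same way. Not called there were Slc25a34 (0.16), whose cytoplasmic level in mCtx was at most 0.228 CPM, Slc25a14 (-0.53), Slc25a28 (-0.78), Slc25a27 (-0.84), Slc25a13 (0.95), Slc25a1 (0.96), Slc25a10 (0.99) and Slc25a5 (0.99). Slc25a13 was not called without mCtx chromatin library 3 (0.91).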

How the results depend on the processing

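Over the named members and alternatives, 4708 results kept their side of the threshold, 89 gained a call and 275 lost one. Of results called in the count model, 6 turned in sign, all 6 in TPM. These were Slc25a30 on mNPC chromatin (0.08 with either pseudocount) and 2 members in the mNPC minus mESC difference. There Slc25a30 was at 0.01 with either and Slc25a43 at 0.52 with log2(TPM + 1) and 1.37 with log2(TPM + 0.1). Sign turns of uncalled results were not counted, such as those of Slc25a3 on mNPC and mCtx chromatin and of Slc25a12 between mCtx and mESC cytoplasm. Member counts that moved by over 1.5 times were as follows, and the cause was not tested. Scaled by library totals, 7 members were lower on mESC chromatin, 1 was higher and 9 lower in the mNPC nucleoplasm, 4 were lower in the mCtx nucleoplasm, and 3 rose in the mNPC minus mESC difference. With log2(TPM + 1), members lower on chromatin were 5 (mESC), 5 (mNPC) and 3 (mCtx); in nucleoplasm 3 were higher and 1 lower (mESC), 0 and 8 (mNPC), and 0 and 1 (mCtx); 7 were lower in mNPC and 9 in mCtx cytoplasm against mESC; the differences gave 3 higher and 4 lower, then 3 and 5. With log2(TPM + 0.1), chromatin gave 5, 5 and 4 lower, nucleoplasm 3 higher (mESC), 0 and 11 (mNPC) and 0 and 4 (mCtx), and the differences 4 higher and then 5 lower. The counts of 0 higher in TPM are limma's. Of all 24361 genes fitted, log2(TPM + 1) gave in nucleoplasm 3765 higher and 965 lower (mESC), 1645 and 3215 (mNPC), and 1559 and 1308 (mCtx). With log2(TPM + 0.1) these were 6761 and 1242, 2557 and 3985, and 2747 and 1785. The log2(TPM + 1) differences gave 3247 and 3840, then 2144 and 3271. Library totals gave, of 18226 genes, 2372 and 3248 in the mNPC nucleoplasm and 1870 and 2089 in that of mCtx.

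With no minimum fold change, 17 were lower on mESC chromatin, 15 higher and 18 lower on mCtx chromatin; in nucleoplasm 15 were lower (mESC), 4 higher and 20 lower (mNPC), and 3 and 16 (mCtx); in cytoplasm 18 were lower in mNPC than mESC, 13 higher and 16 lower in mCtx than mNPC, and 20 higher in mCtx than mESC; 14 fell in the mNPC minus mESC difference. Of all 18226 genes, that setting gave 5697 lower on mESC chromatin and 6441 higher and 6201 lower on mCtx chromatin. In nucleoplasm it gave 6005 higher and 5516 lower (mESC), 4009 and 4957 (mNPC), and 4198 and 4325 (mCtx). In cytoplasm 6981 were lower in mNPC than mESC, 6144 higher and 5674 lower in mCtx than mNPC, and 7671 higher in mCtx than mESC. In the mNPC minus mESC difference 4242 fell. Without a filter 2 members were higher in the mCtx nucleoplasm (2188 of 26792 genes). The compared groups alone gave 4 rising in the mNPC minus mESC difference (1481 of 17194 genes). Without the 3 mESC libraries numbered 1, 5 were lower in the mESC nucleoplasm. The other counts without those 3 moved less, with 6 higher in that nucleoplasm and 12 higher and 11 lower on mESC chromatin. Against mESC cytoplasm, 13 were then higher and 11 lower in mNPC, and 13 and 13 in mCtx. In the mNPC minus mESC difference 5 rose and 11 fell. Of all 18377 genes then tested, 4434 were higher and 1847 lower in the mESC nucleoplasm, and 1554 rose and 3752 fell in that difference. The member median was then 0.05 on mESC chromatin and -0.33 in that difference, beside 0.37 and -0.33 for all genes.

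Leaving out 1 replicate at a time gave, higher and lower, 11 to 13 and 10 to 11 on mESC chromatin, 10 to 12 and 13 to 14 (mNPC), and 9 to 10 and 10 to 11 (mCtx). For nucleoplasm it gave 3 to 7 and 3 to 6 (mESC), 2 to 2 and 2 to 4 (mNPC), and 1 to 2 and 1 to 4 (mCtx). For cytoplasm it gave 14 to 17 and 10 to 12 (mNPC against mESC), 6 to 7 and 8 to 9 (mCtx against mNPC), and 13 to 13 and 13 to 14 (mCtx against mESC). The differences gave 4 to 9 and 7 to 11, then 6 to 9 and 8 to 8.

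With the replicate number as a block, calls were gained by Slc25a48 between mCtx and mNPC cytoplasm (1.55), by Slc25a48 (-2.76) and Slc25a45 (1.23) in the mNPC minus mESC difference and by Slc25a36 (-1.01) in the mCtx minus mNPC difference; Slc25a30 (-0.94) and Slc25a14 (0.99) lost theirs in the former. Beside these and the mESC nucleoplasm calls of Slc25a31 and Slc25a43, the block changed no member's call. Depth limits Slc25a2, Slc25a31, Slc25a41, Slc25a43 and Slc25a48, whose calls rest on few reads.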

Other observations

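Of 18 citric acid cycle genes, 11 were called lower and none higher in mCtx than in mNPC cytoplasm by edgeR's quasi-likelihood test (n = 3 libraries a group), with a median log2 fold change of -1.19, beside 20% of all genes lower and 24.4% higher and a median near 0 over all genes. Suclg2, the GTP-forming subunit of succinyl-CoA synthetase, was lowest (-3.61), followed by Idh2 (-2.61), while Idh3a, a subunit of the NAD-dependent isocitrate dehydrogenase, had a log2 fold change of 0.00. Of 15 ATP synthase genes, 3 were called lower and 1 higher, and the 15 genes of carrier import had none lower and 2 higher. Among 19 other inner membrane transporters, 10 were called higher and none lower in mNPC than in mESC cytoplasm, with Mcub, the inhibitory subunit of the calcium uniporter, at 7.06, beside 29.8% of all genes higher and 29.6% lower. The lists were chosen with earlier results of these data known.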
